A study of Mus musculus with 9 samples.

Results

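The 35 genes described here are those of the unfolded protein response and the integrated stress response, chosen by name as endoplasmic reticulum (ER) chaperones, degradation genes, stress sensors and genes of the ATF4 and CHOP pathway. They make up 35 of 18194 genes with a named probe set on the array, and all 35 were among the 13888 genes bright enough to be tested. RNA came from 9 pieces of male C57Bl6 mouse liver at 12 months of age, kept on regular chow without treatment. The tumor group was 3 pieces of a liver tumor of a SART1+/- mouse, with the label hepatocellular carcinoma and severe steatosis. The adjacent group was 3 pieces of liver next to that tumor in the same SART1+/- mouse, labelled as cellular alteration with severe steatosis. The wild-type group was 3 pieces of liver of a wild-type mouse, labelled normal with mild steatosis. Sart1, the altered gene, was at 7.77, 7.71 and 7.75 (log2) in tumor, 8.34, 8.39 and 8.38 in adjacent liver and 8.35, 8.32 and 8.36 in wild-type liver. It fell by 0.60 in tumor against wild-type liver (limma, SE 0.05, adjusted p = 2.61e-06), and adjacent against wild-type liver gave 0.03 (adjusted p = 0.678). Its level thus does not separate the adjacent pieces, labelled SART1+/-, from wild-type liver. Each group is 1 animal's tissue, so p-values measure the spread between pieces and not between animals. Against wild-type liver, the animal, genotype, steatosis and tumor cannot be told apart. In bulk tissue, fewer cells of a type and less RNA per cell cannot be told apart either.

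When unfolded proteins build up in the ER, the membrane sensors IRE1 (encoded by Ern1), PERK (Eif2ak3) and ATF6 are released from the chaperone BiP (Hspa5). IRE1 splices the mRNA of Xbp1 and ATF6 is cut to an active factor. Both then raise genes for ER chaperones and for ER-associated degradation, which returns misfolded proteins to the cytosol for destruction. PERK phosphorylates the translation factor eIF2 alpha, which favours translation of ATF4, and other kinases reach the same point from amino acid shortage, viral RNA or heme deficiency. That shared output, the integrated stress response, includes CHOP (Ddit3), Trib3 and asparagine synthetase (Asns). The liver secretes much of the plasma's protein and so carries a heavy ER load. Splicing of Xbp1, cleavage of ATF6 and phosphorylation of eIF2 alpha were not measured here.

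The letters that separate these branches in textbooks were looked for in the promoters, from 250 bases before to 50 bases after each RefSeq start site (GRCm38.p6). Of the 35 genes, 31 had such a window, all but Atf6, Derl1, Hyou1 and Manf. The ER stress element ERSE, which reads CCAAT, any 9 bases and CCACG, is bound by ATF6 with the factor NF-Y. On either strand it lay in the windows of 7 of 12 chaperones, 2 of 6 degradation genes, 0 of 10 genes of the ATF4/CHOP branch and 0 of 3 windows of the sensors and Xbp1, against 0.119% of all 32851 windows. Its relative ERSE-II, which reads ATTGG, any base and CCACG, lay in Dnajb11 and Herpud1 and in 0.0365% of all windows. The C/EBP-ATF response element CARE, TGATGNAAN, which ATF4 binds with C/EBP partners, lay in 5 of 10 genes of the ATF4/CHOP branch, in 0 of 12 chaperones and in Herpud1, against 3.95% of all windows. The XBP1-linked element UPRE, TGACGTGG, lay in none of the members' windows and in 0.676% of all windows. No match overlapped a match of another motif. These are letter matches, not measured binding. The members were chosen as known genes of these pathways, so the shares describe them and are not an independent test.

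A full window of each kind is given 5′ to 3′ on the gene's strand, with the matches in capitals, for the central chaperone gene Hspa5 (chr2:34771840-34772139, plus strand), the ATF4/CHOP gene Trib3 (chr2:152344011-152344310, minus strand) and the degradation gene Herpud1 (chr8:94386179-94386478, plus strand), which holds a CARE match upstream of an ERSE-II match.
Hspa5: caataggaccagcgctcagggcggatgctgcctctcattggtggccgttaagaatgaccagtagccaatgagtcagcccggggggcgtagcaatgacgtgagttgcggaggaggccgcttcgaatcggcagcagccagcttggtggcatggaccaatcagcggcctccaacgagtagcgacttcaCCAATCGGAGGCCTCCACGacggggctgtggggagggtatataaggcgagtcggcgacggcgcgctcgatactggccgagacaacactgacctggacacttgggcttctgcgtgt
Trib3: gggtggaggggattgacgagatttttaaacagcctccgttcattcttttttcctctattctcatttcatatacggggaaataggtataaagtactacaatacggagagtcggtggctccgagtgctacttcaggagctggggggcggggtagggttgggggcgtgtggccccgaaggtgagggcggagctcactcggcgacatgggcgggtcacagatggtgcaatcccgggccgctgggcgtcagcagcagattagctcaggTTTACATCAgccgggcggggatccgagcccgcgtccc
Herpud1: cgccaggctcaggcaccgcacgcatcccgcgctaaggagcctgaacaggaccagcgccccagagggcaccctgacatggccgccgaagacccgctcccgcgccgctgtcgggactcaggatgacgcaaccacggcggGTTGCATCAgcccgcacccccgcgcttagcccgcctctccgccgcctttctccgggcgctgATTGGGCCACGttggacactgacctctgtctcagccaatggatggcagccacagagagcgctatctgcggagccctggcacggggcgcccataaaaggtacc

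The other ERSE matches are shown with 15 bases on either side to let the fixed ends of the element be compared. They come from Hsp90b1, which had 2 (chr10:86705623-86705671 and chr10:86705518-86705566, minus strand), Creld2 (chr15:88819505-88819553, plus), Dnajc3 (chr14:118937812-118937860, plus), Pdia6 (chr12:17266476-17266524, plus), Calr (chr8:84847060-84847108, minus), Canx (chr11:50325785-50325833, minus), Syvn1 (chr19:6046517-6046565, plus) and Derl3 (chr10:75893227-75893275, plus). Matches that start with CGTGG are the element read from the opposite strand.
Hsp90b1: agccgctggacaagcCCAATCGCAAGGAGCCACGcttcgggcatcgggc
Hsp90b1: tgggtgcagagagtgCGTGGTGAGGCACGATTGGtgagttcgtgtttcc
Creld2: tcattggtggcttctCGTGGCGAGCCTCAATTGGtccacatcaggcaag
Dnajc3: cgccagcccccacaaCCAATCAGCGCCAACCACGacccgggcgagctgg
Pdia6: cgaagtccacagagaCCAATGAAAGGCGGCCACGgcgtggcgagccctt
Calr: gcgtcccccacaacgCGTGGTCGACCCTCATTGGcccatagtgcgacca
Canx: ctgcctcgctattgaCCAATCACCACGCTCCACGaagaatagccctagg
Syvn1: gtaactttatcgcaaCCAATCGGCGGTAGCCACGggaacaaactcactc
Derl3: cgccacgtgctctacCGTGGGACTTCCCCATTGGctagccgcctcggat

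The other CARE matches of the ATF4/CHOP branch are shown in the same way. They come from Atf3 (chr1:191183421-191183459, minus), Chac1 (chr2:119351033-119351071, plus), Asns (chr6:7693209-7693247, minus) and Nupr1 (chr7:126625558-126625596, minus), and those that end in CATCA are read from the opposite strand.
Atf3: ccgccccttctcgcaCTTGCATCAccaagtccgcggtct
Chac1: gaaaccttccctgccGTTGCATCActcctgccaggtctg
Asns: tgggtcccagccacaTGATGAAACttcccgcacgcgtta
Nupr1: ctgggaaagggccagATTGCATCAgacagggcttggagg

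**Figure D1:**
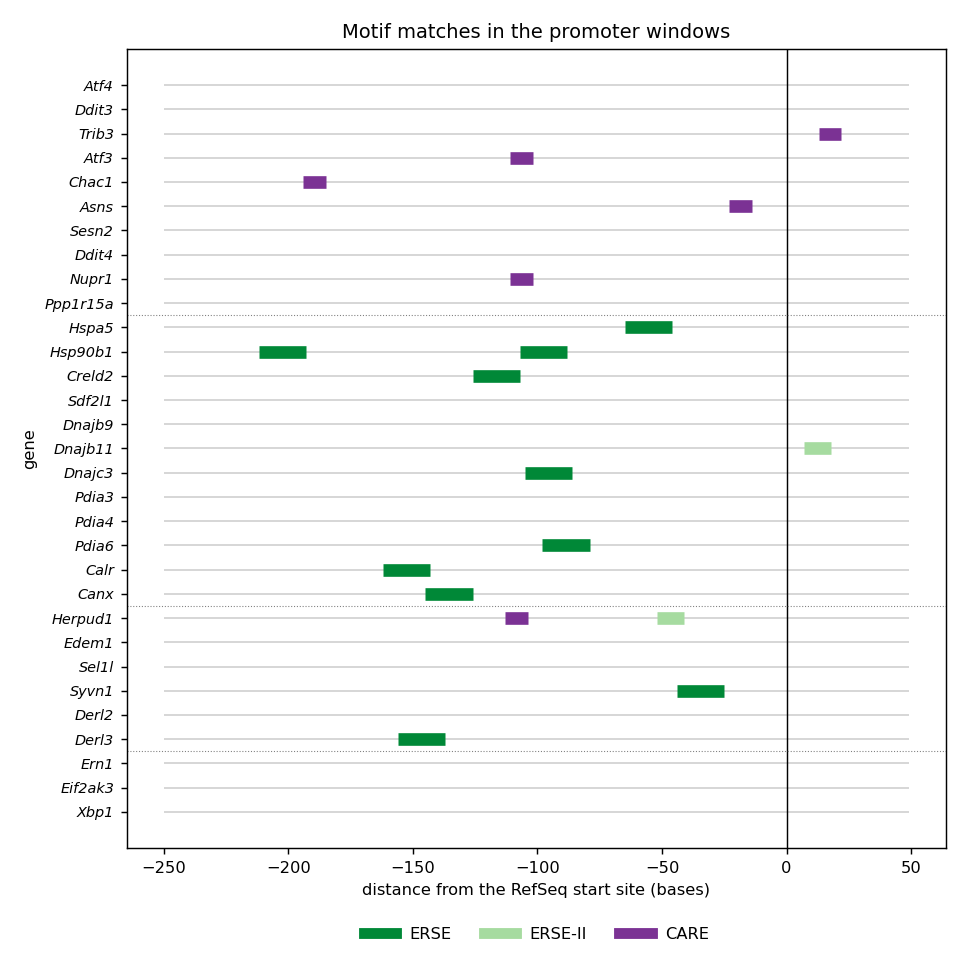
Position of ERSE (dark green), ERSE-II (light green) and CARE (purple) letter matches in the promoter windows of 31 genes, as distance in bases from the RefSeq start site, with dotted lines between the roles. ERSE matches sit in 7 of 12 chaperone windows and CARE matches in 5 of 10 windows of the ATF4/CHOP branch.

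Values are log2 expression after RMA, for the brightest probe set of each gene with a single symbol. A level is therefore comparable between groups for a gene, not between genes. Every test is limma's, fitted over all 9 arrays and 13888 genes with Benjamini-Hochberg adjustment. Rose and fell are used where the adjusted p was under 0.05, and called where the difference was also at least 2-fold, which is 1 on the log2 scale. The 2 comparisons with wild-type liver share its 3 pieces, and likewise tumor and adjacent pieces are each used in 2 comparisons.

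The data show a different course for the branches. On average, the ATF4/CHOP branch was higher in tumor and, by less, in adjacent liver than in wild-type liver. In adjacent against wild-type liver 6 of its 10 genes rose and 2 fell, Ddit4 by 1.42. The chaperones were mostly lower in adjacent liver than in wild-type liver, and mostly higher in tumor than in either. Of the 14, 10 rose and 1 fell in tumor against wild-type liver, and Hspa5, at 0.14, did neither (adjusted p = 0.0952). Averaged over the 10 genes of the ATF4/CHOP branch, the shift from the wild-type mean was 1.14, 1.17 and 1.09 (log2) in the tumor pieces, 0.51, 0.51 and 0.56 in the adjacent pieces and 0.07, -0.03 and -0.04 in the wild-type pieces. Over the 14 chaperones it was 0.46, 0.54 and 0.47 in tumor, -0.28, -0.34 and -0.32 in adjacent liver and -0.08, -0.10 and 0.18 in wild-type liver. For both averages the 3 groups did not overlap. Wild-type piece 3 lay above the other wild-type pieces for the chaperones. The ATF4/CHOP mean minus the chaperone mean was 0.67, 0.63 and 0.62 in tumor, 0.80, 0.85 and 0.88 in adjacent liver and 0.15, 0.07 and -0.22 in wild-type liver. In both tumor and adjacent liver the difference lay above every wild-type piece.

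**Figure D2:**
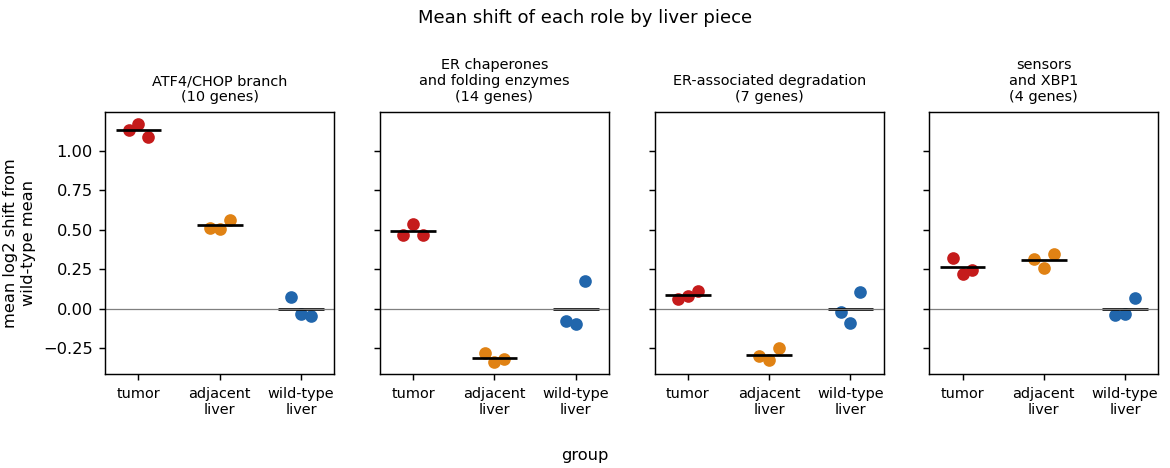
Mean log2 shift from the wild-type mean (vertical axis) of the genes of each role in every piece, with points for the 3 pieces of tumor, adjacent liver and wild-type liver and a bar for their mean. The chaperones lie at 0.46 to 0.54 in tumor and at -0.34 to -0.28 in adjacent liver, while the ATF4/CHOP branch lies above wild-type liver in both.

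In tumor against wild-type liver, 21 of the 35 genes rose and 6 fell, against 33.2% and 30.2% of all genes tested. The 2-fold call took in 10 higher and 1 lower, against 8.41% and 4.59% of all genes. The median difference of the 35 genes was 0.43, beside -0.01 for all genes tested. In adjacent against wild-type liver, 12 rose and 15 fell, against 34.0% and 28.9% of all genes. There 4 were called higher and 3 lower (background 8.29% and 3.22%), and the median was -0.04, beside -0.01 for all genes. In tumor against adjacent liver, within the SART1+/- mouse, 25 rose and 5 fell, against 20.1% and 25.1% of all genes. The call took in 8 higher and 0 lower (background 2.10% and 2.94%), with a median of 0.49, beside -0.01 for all genes. Of the 5 that fell by the adjusted p alone, none changed 2-fold. The members are pathway genes chosen with earlier results of these data known, and no test of the list as a whole was made.

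**Figure D3:**
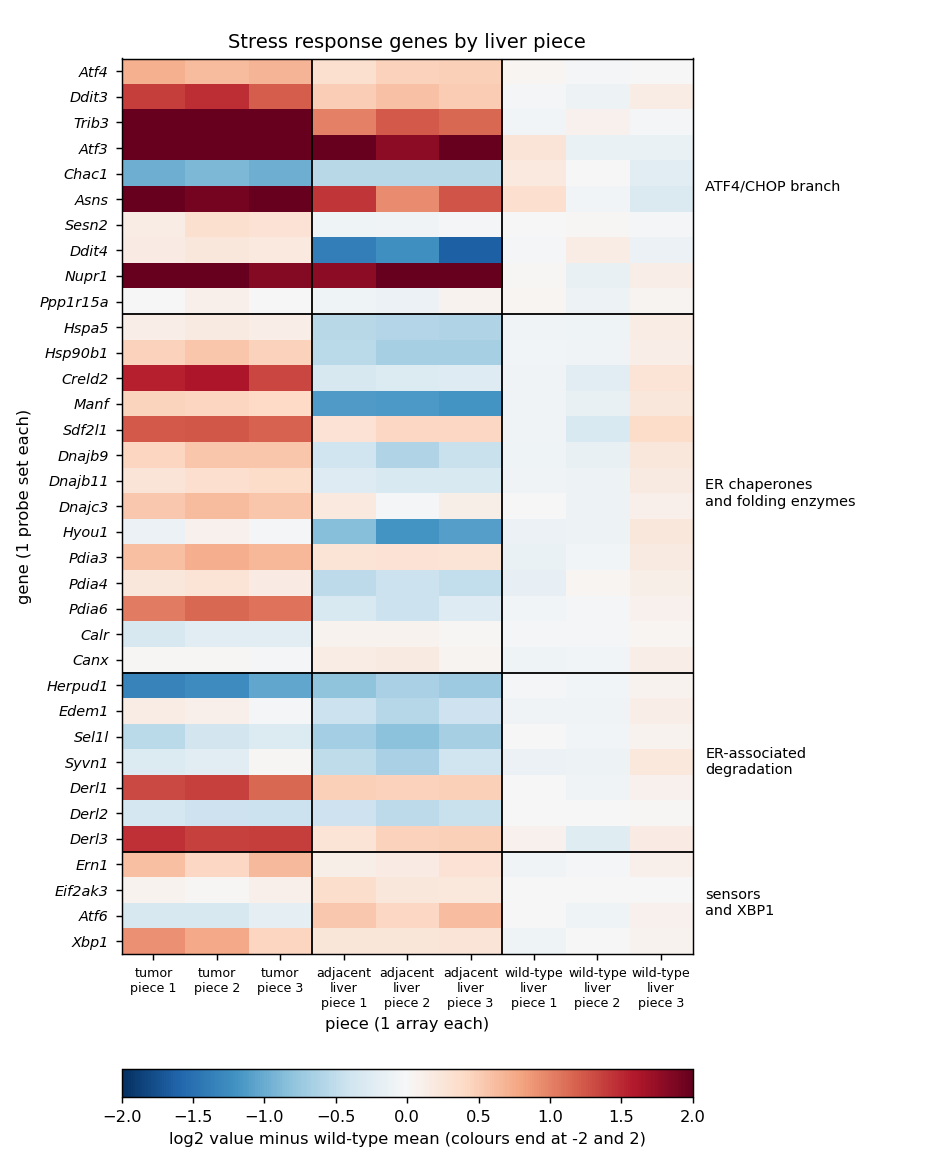
Log2 value minus the wild-type mean (colour, red higher, blue lower, ending at -2 and 2) of the 35 genes in rows by role, and the 9 pieces in columns, tumor, adjacent liver and wild-type liver from left to right. The chaperone rows are mostly red in tumor and blue in adjacent liver, whereas Ddit3, Trib3, Atf3, Asns and Nupr1 are red in both.

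In the ATF4/CHOP branch, 7 of 10 genes rose and 1 fell in tumor against wild-type liver (all genes 33.2% and 30.2%). There 5 were called higher (all genes 8.41%), with a median of 1.02. In adjacent against wild-type liver 6 rose and 2 fell (all genes 34.0% and 28.9%). There 4 were called higher and 1 lower (all genes 8.29% and 3.22%), with a median of 0.48. In tumor against adjacent liver 6 rose and 1 fell (all genes 20.1% and 25.1%). There 2 were called higher (all genes 2.10%), with a median of 0.30. These medians depended on the probe set rule: the mean over probe sets gave 0.25 in adjacent against wild-type liver and 0.47 in tumor against adjacent liver, and the most variable probe set gave 0.59 in tumor against adjacent liver. Atf4, the transcription factor at the head of the branch, was at 11.40, 11.32 and 11.36 in tumor, 11.00, 11.15 and 11.17 in adjacent liver and 10.72, 10.64 and 10.70 in wild-type liver. The groups did not overlap, and tumor pieces were the highest. Its mRNA rose by 0.67 in tumor (SE 0.06, adjusted p = 4.94e-06) and by 0.42 in adjacent liver (SE 0.06, adjusted p = 0.000188) over wild-type liver, both under 2-fold.

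Trib3, a pseudokinase induced by ATF4 and CHOP that restrains AKT signalling, had the largest increase of the 35 genes in tumor against wild-type liver. It was at 11.08, 11.07 and 10.80 in tumor, 8.88, 9.09 and 9.01 in adjacent liver and 7.81, 7.94 and 7.84 in wild-type liver. Tumor pieces were the highest and wild-type pieces the lowest, with no overlap. Over wild-type liver it rose by 3.12 in tumor, which is 8.72-fold (SE 0.09, adjusted p = 7.17e-10), and by 1.13 in adjacent liver (SE 0.09, adjusted p = 1.48e-06). Tumor was above adjacent liver by 1.99 (SE 0.09, adjusted p = 8.4e-08). Another, separate probe set gave 3.30, 1.38 and 1.92 in these comparisons.

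Ddit3 encodes CHOP, the factor tied to cell death under lasting ER stress. Its values were 8.90, 8.99 and 8.73 in tumor, 8.01, 8.10 and 8.02 in adjacent liver and 7.46, 7.41 and 7.66 in wild-type liver, again without overlap. CHOP mRNA rose by 1.36 in tumor (SE 0.09, adjusted p = 2.33e-07) and by 0.53 in adjacent liver (SE 0.09, adjusted p = 0.000321) over wild-type liver. A dimmer probe set of the gene gave 0.99 in tumor (adjusted p = 2.21e-06) and 0.14 in adjacent liver (adjusted p = 0.18), so the rise in adjacent liver rests on the brighter probe set.

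Asns, which makes asparagine and is induced by ATF4 when amino acids run short, was at 8.76, 8.55 and 9.14 in tumor, 8.07, 7.58 and 7.89 in adjacent liver and 6.97, 6.59 and 6.34 in wild-type liver. The 3 groups stood apart in that order. The rise over wild-type liver was 2.18 in tumor (SE 0.19, adjusted p = 2.49e-06) and 1.21 in adjacent liver (SE 0.19, adjusted p = 0.000235). It rose by 0.97 over adjacent liver (SE 0.19, adjusted p = 0.00164), just under the 2-fold limit, and by 1.08 without adjacent piece 1 or 1.10 without tumor piece 2. A dimmer probe set gave 3.85, 2.39 and 1.45 in the same comparisons, with its wild-type mean of 3.88 below the array medians of 5.76 to 5.81. Its wild-type pieces lay below the 40th percentile of their arrays, 5.23 to 5.26. The probe set thus entered the test only through tumor and adjacent liver.

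Atf3 and Nupr1 rose to similar levels in tumor and adjacent liver. Atf3, a stress-induced transcription factor of the same family as ATF4, was at 8.29, 8.40 and 8.34 in tumor, 8.34, 7.94 and 8.49 in adjacent liver and 6.40, 6.03 and 6.03 in wild-type liver. The rise over wild-type liver was 2.19 in tumor (SE 0.14, adjusted p = 2.53e-07) and 2.11 in adjacent liver (SE 0.14, adjusted p = 4.26e-07). The tumor and adjacent pieces overlapped and gave a difference of 0.09 (SE 0.14, adjusted p = 0.662). Nupr1, a small chromatin-associated stress protein, was at 8.18, 8.20 and 7.57 in tumor, 7.53, 7.79 and 7.80 in adjacent liver and 5.76, 5.59 and 5.87 in wild-type liver. It rose by 2.25 in tumor (SE 0.16, adjusted p = 4.83e-07) and by 1.97 in adjacent liver (SE 0.16, adjusted p = 1.65e-06), while tumor and adjacent liver differed by 0.28 (SE 0.16, adjusted p = 0.183). Tumor piece 3 was the lowest tumor piece and lay within the adjacent range.

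Ddit4, or REDD1, which holds back mTORC1 under energy stress, hypoxia and ATF4 activity, ran a different course. Its values were 9.45, 9.50 and 9.49 in tumor, 7.90, 8.05 and 7.64 in adjacent liver and 9.24, 9.43 and 9.17 in wild-type liver. Adjacent pieces were the lowest, below every piece of the other groups. Adjacent liver fell by 1.42 against wild-type liver (SE 0.10, adjusted p = 7.92e-07), and tumor exceeded adjacent liver by 1.62 (SE 0.10, adjusted p = 8.2e-07). Tumor against wild-type liver gave 0.20 (SE 0.10, adjusted p = 0.115).

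Chac1, which degrades glutathione and is known as a target of ATF4, fell where its neighbours in the branch rose. It was at 6.40, 6.48 and 6.41 in tumor, 6.82, 6.82 and 6.82 in adjacent liver and 7.57, 7.39 and 7.17 in wild-type liver. The adjacent pieces held the same deposited value, so their spread is understated, as in 0.831% of the 45101 probe sets in that group. Tumor pieces were the lowest and wild-type pieces the highest. Tumor fell by 0.95 (SE 0.09, adjusted p = 4.74e-06) and adjacent liver fell by 0.56 (SE 0.09, adjusted p = 0.000291) against wild-type liver. Without wild-type piece 3 the tumor difference was -1.06, past the 2-fold limit. Chac1 and Nupr1 both hold a CARE match in their window, and their differences from wild-type liver had opposite signs.

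Sesn2, a leucine-binding inhibitor of mTORC1, ranged from 7.95 to 8.13 in tumor, 7.72 to 7.78 in adjacent liver and 7.78 to 7.83 in wild-type liver. It rose by 0.25 in tumor against wild-type liver (SE 0.06, adjusted p = 0.00478), and the adjacent difference was -0.06 (adjusted p = 0.391). Another probe set gave 0.92 for tumor against wild-type liver (adjusted p = 1.07e-06), so the size of that rise depended on the probe set by over 1.5 times. The same probe set gave -0.21 in adjacent against wild-type liver (adjusted p = 0.0294) and 1.12 in tumor against adjacent liver (adjusted p = 7.5e-07), past the 2-fold limit. Ppp1r15a, or GADD34, which returns eIF2 alpha to its unphosphorylated state, ranged from 8.58 to 8.68 in tumor, 8.45 to 8.65 in adjacent liver and 8.48 to 8.63 in wild-type liver, with differences of 0.04, -0.04 and 0.08 and adjusted p = 0.661, 0.618 and 0.408 for tumor against wild-type, adjacent against wild-type and tumor against adjacent liver.

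**Figure D4:**
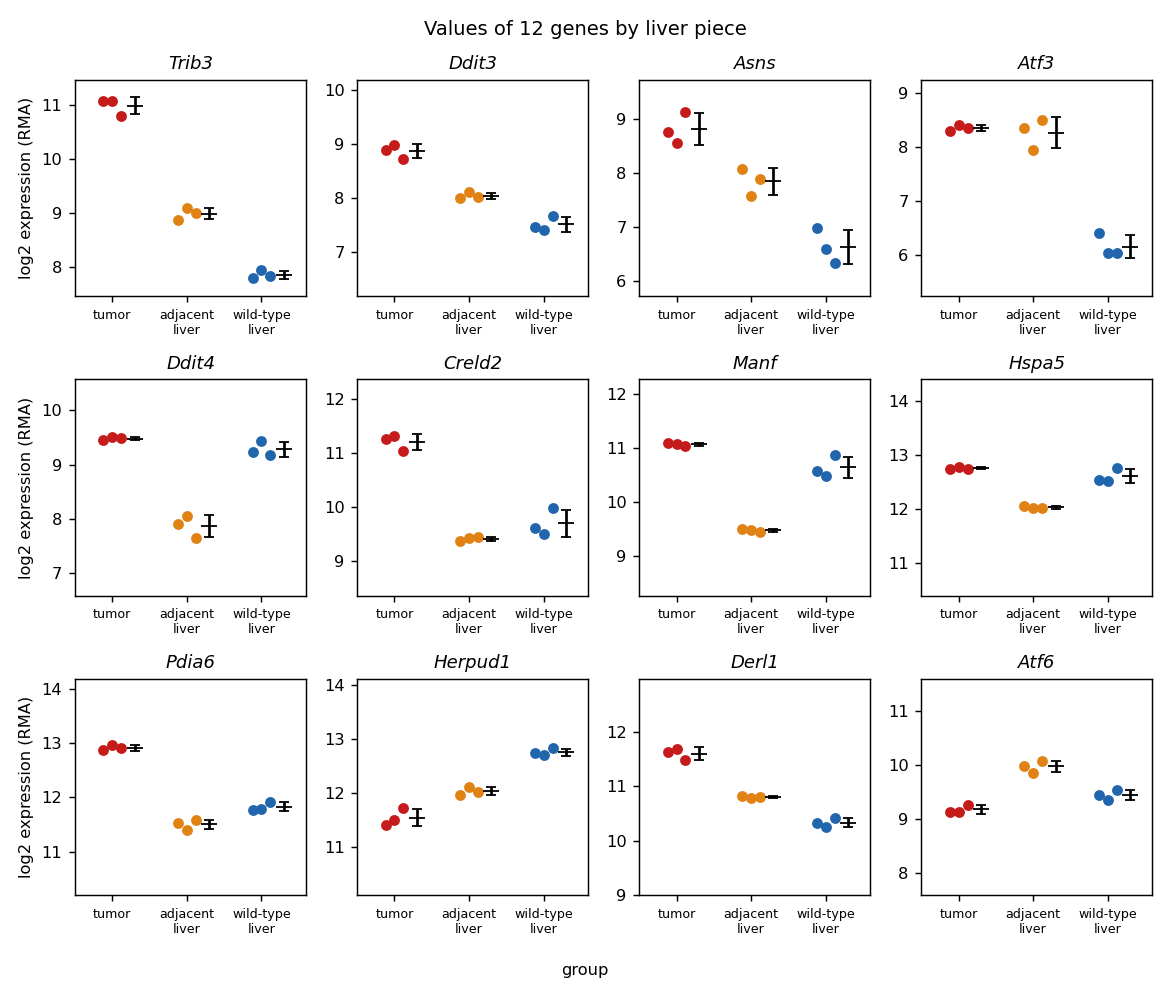
Log2 expression (vertical axis, each panel spanning the same range) of 12 genes in the 3 pieces of tumor, adjacent liver and wild-type liver, with the mean and SD beside the points (n = 3). Trib3, Ddit3 and Asns step down from tumor to adjacent to wild-type liver, Ddit4, Manf and Hspa5 are lowest in adjacent liver, Herpud1 is lowest in tumor and Atf6 is highest in adjacent liver.

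Of the 14 ER chaperones and folding enzymes, 10 rose and 1 fell in tumor against wild-type liver (all genes 33.2% and 30.2%). There 3 were called higher (all genes 8.41%), with a median of 0.46. In adjacent against wild-type liver 2 rose and 8 fell (all genes 34.0% and 28.9%). There 2 were called lower (all genes 3.22%), with a median of -0.31. In tumor against adjacent liver 12 rose and 1 fell (all genes 20.1% and 25.1%). There 5 were called higher (all genes 2.10%), with a median of 0.78. Hspa5, the Hsp70 chaperone BiP that binds unfolded chains and holds the sensors silent, was at 12.74, 12.79 and 12.74 in tumor, 12.06, 12.03 and 12.01 in adjacent liver and 12.54, 12.53 and 12.77 in wild-type liver. Adjacent pieces were below all others, while tumor and wild-type pieces overlapped. BiP mRNA fell by 0.58 in adjacent liver (SE 0.07, adjusted p = 3.99e-05), was at 0.14 in tumor against wild-type liver (SE 0.07, adjusted p = 0.0952) and was higher by 0.72 in tumor than in adjacent liver (SE 0.07, adjusted p = 1.51e-05). Other Hspa5 probe sets gave -0.61 and -0.26 in adjacent against wild-type liver (adjusted p = 0.000405 and 0.0695).

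Hsp90b1, or GRP94, the Hsp90 of the ER, was at 12.46, 12.55 and 12.45 in tumor, 11.46, 11.32 and 11.33 in adjacent liver and 11.93, 11.92 and 12.13 in wild-type liver. The groups did not overlap. It rose by 0.49 in tumor (SE 0.07, adjusted p = 0.000167) and fell by 0.62 in adjacent liver (SE 0.07, adjusted p = 3.16e-05) against wild-type liver, and tumor exceeded adjacent liver by 1.12 (SE 0.07, adjusted p = 1.05e-06). Another probe set gave 0.34, -0.39 and 0.73 in these comparisons (adjusted p = 0.0118, 0.006 and 0.00015). The mean over probe sets gave 0.92 in tumor against adjacent liver, so the 2-fold call there depends on the probe set.

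Manf, a small secreted ER protein that stabilises BiP's complexes with its clients, had the largest fall among the chaperones in adjacent liver. It was at 11.09, 11.07 and 11.04 in tumor, 9.50, 9.49 and 9.45 in adjacent liver and 10.57, 10.49 and 10.86 in wild-type liver. Adjacent pieces were the lowest by a wide gap. Adjacent liver fell by 1.16 against wild-type liver (SE 0.09, adjusted p = 1.09e-06), tumor rose by 0.43 over wild-type liver (SE 0.09, adjusted p = 0.00153) and tumor exceeded adjacent liver by 1.59 (SE 0.09, adjusted p = 3.2e-07). Hyou1, the large Hsp70-like partner of BiP, was at 10.36, 10.56 and 10.43 in tumor, 9.62, 9.28 and 9.37 in adjacent liver and 10.36, 10.37 and 10.69 in wild-type liver. Hyou1 fell by 1.05 in adjacent against wild-type liver (SE 0.11, adjusted p = 1.42e-05) and was higher by 1.03 in tumor than in adjacent liver (SE 0.11, adjusted p = 3.35e-05). Both calls lay at the 2-fold limit: the adjacent difference was -0.94 without wild-type piece 3 and -0.98 without adjacent piece 2, and the tumor excess 0.96 without adjacent piece 2 and 0.97 without tumor piece 2. Tumor and wild-type pieces overlapped (-0.03, SE 0.11, adjusted p = 0.85), though another probe set rose by 0.32 in tumor (adjusted p = 0.0396). In adjacent against wild-type liver its other probe sets gave -0.67 and -0.63 (adjusted p = 0.000148 and 0.00112), under 2-fold.

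Creld2, a disulfide isomerase-like ER protein, showed the largest rise among the chaperones in tumor. It was at 11.25, 11.32 and 11.04 in tumor, 9.37, 9.42 and 9.44 in adjacent liver and 9.62, 9.49 and 9.98 in wild-type liver. Tumor pieces stood far above both other groups. The rise was 1.51 over wild-type liver (SE 0.12, adjusted p = 1.13e-06) and 1.79 over adjacent liver (SE 0.12, adjusted p = 1.01e-06), and adjacent against wild-type liver gave -0.29 (SE 0.12, adjusted p = 0.0535). Pdia6, a protein disulfide isomerase that also damps IRE1, was at 12.87, 12.98 and 12.91 in tumor, 11.53, 11.40 and 11.57 in adjacent liver and 11.78, 11.79 and 11.92 in wild-type liver. It rose by 1.09 over wild-type liver (SE 0.07, adjusted p = 2.24e-07) and by 1.42 over adjacent liver (SE 0.07, adjusted p = 1.35e-07), and adjacent liver fell by 0.33 against wild-type liver (SE 0.07, adjusted p = 0.00167). A dim probe set of Pdia6 gave 0.15 for tumor against wild-type liver (adjusted p = 0.334), and the mean over its probe sets gave 0.62.

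Sdf2l1, which works with the ER co-chaperones of the DnaJ family, was at 9.06, 9.07 and 9.01 in tumor, 8.12, 8.24 and 8.24 in adjacent liver and 7.76, 7.53 and 8.20 in wild-type liver. Unlike BiP it was not lowest in adjacent liver, where it rose by 0.37 (SE 0.14, adjusted p = 0.0354) with overlap between adjacent and wild-type pieces. The tumor rise was 1.21 over wild-type liver (SE 0.14, adjusted p = 1.92e-05). Dnajb9 (ERdj4), a co-chaperone that restrains IRE1, ranged from 11.73 to 11.85 in tumor, 10.70 to 10.89 in adjacent liver and 11.14 to 11.53 in wild-type liver. It rose by 0.52 in tumor (adjusted p = 0.00102), fell by 0.48 in adjacent liver (adjusted p = 0.00171), and tumor exceeded adjacent liver by 1.00 (adjusted p = 1.84e-05), just short of the call, and by 1.04 without adjacent piece 1 or without tumor piece 1. Dnajb11 (ERdj3), a secreted co-chaperone of BiP, followed with 0.31, -0.29 and 0.60 in tumor against wild-type, adjacent against wild-type and tumor against adjacent liver.

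The disulfide isomerases did not move as a block. Pdia4 (ERp72) ranged from 9.24 to 9.35 in tumor, 8.55 to 8.64 in adjacent liver and 8.91 to 9.21 in wild-type liver, a BiP-like course with 0.22, -0.49 and 0.71 in those 3 comparisons (adjusted p = 0.03, 0.000287 and 3.62e-05). Pdia3 (ERp57), which pairs with calnexin and calreticulin on glycoproteins, ranged from 12.55 to 12.67 in tumor, 12.21 to 12.23 in adjacent liver and 11.81 to 12.12 in wild-type liver. Its differences were 0.67, 0.27 and 0.39 (adjusted p = 3.11e-05, 0.0115 and 0.00222). A dimmer Pdia3 probe set fell in adjacent liver, at -0.20 (adjusted p = 0.038), opposite to the brighter one. Dnajc3 (p58IPK), an ER co-chaperone first known as an inhibitor of eIF2 kinases, rose by 0.57 in tumor over wild-type liver (SE 0.08, adjusted p = 8.49e-05) with its brightest probe set. Its 4 other probe sets gave 0.02, -0.35, -0.28 and -0.52, the last 3 of them lower at adjusted p = 0.0028, 0.0337 and 0.0146, so its direction depends on the probe set.

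The lectin chaperones of the calnexin cycle, which hold glycoproteins until they fold, did not follow the BiP group. Calr (calreticulin) ranged from 12.99 to 13.09 in tumor, 13.34 to 13.39 in adjacent liver and 13.29 to 13.35 in wild-type liver. It fell by 0.26 in tumor against wild-type liver (SE 0.05, adjusted p = 0.00193) and fell by 0.31 in tumor against adjacent liver (SE 0.05, adjusted p = 0.000881), and adjacent against wild-type liver gave 0.05 (adjusted p = 0.401). Canx (calnexin) ranged from 11.55 to 11.60 in tumor, 11.64 to 11.76 in adjacent liver and 11.50 to 11.71 in wild-type liver, and passed in none of the 3 comparisons (adjusted p = 0.957, 0.132 and 0.186), while another probe set rose by 0.22 in adjacent against wild-type liver (adjusted p = 0.0393). Both windows hold an ERSE match, as do those of Hspa5, Hsp90b1, Creld2 and Pdia6.

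Among the 7 genes of ER-associated degradation, 2 rose and 3 fell in tumor against wild-type liver (all genes 33.2% and 30.2%). There 2 were called higher and 1 lower (all genes 8.41% and 4.59%), with a median of -0.15. In adjacent against wild-type liver 2 rose and 5 fell (all genes 34.0% and 28.9%). The median there was -0.47, with no 2-fold call on the probe sets used. In tumor against adjacent liver 5 rose and 1 fell (all genes 20.1% and 25.1%). There 1 was called higher (all genes 2.10%), with a median of 0.37. Herpud1, a membrane scaffold of the HRD1 ligase complex, was the only one of the 7 called lower. It was at 11.42, 11.51 and 11.73 in tumor, 11.97, 12.12 and 12.03 in adjacent liver and 12.74, 12.71 and 12.84 in wild-type liver. Tumor pieces were the lowest, and the groups did not overlap. Herpud1 fell by 1.21 in tumor (SE 0.08, adjusted p = 4.68e-07) and fell by 0.73 in adjacent liver (SE 0.08, adjusted p = 2.77e-05) against wild-type liver, and another probe set gave -1.32 and -0.86. Its window, printed above, is the only member's window with both an ERSE-type and a CARE match.

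The derlins, membrane proteins of the channel that moves substrates out of the ER, split. Derl1 was at 11.65, 11.70 and 11.48 in tumor, 10.81, 10.79 and 10.81 in adjacent liver and 10.33, 10.25 and 10.41 in wild-type liver. The 3 groups stood apart, with tumor the highest. It rose by 1.28 in tumor (SE 0.07, adjusted p = 8.25e-08) and by 0.47 in adjacent liver (SE 0.07, adjusted p = 0.000172) over wild-type liver. Its other probe sets gave 1.13, 0.76 and 0.60 in tumor, but in adjacent liver 0.29, -0.25 and -0.08, of which -0.25 passed (adjusted p = 0.0109), so the adjacent direction depends on the probe set. Derl3, the derlin most tied to secretory cells and XBP1, was at 8.93, 8.85 and 8.85 in tumor, 7.75, 7.93 and 7.95 in adjacent liver and 7.56, 7.23 and 7.63 in wild-type liver. It rose by 1.41 in tumor (SE 0.10, adjusted p = 6.18e-07) and by 0.40 in adjacent liver (SE 0.10, adjusted p = 0.00533) over wild-type liver. Its excess of 1.00 in tumor over adjacent liver sat on the 2-fold limit and was 0.94 without adjacent piece 1 and 0.97 without tumor piece 1. Derl2 ranged from 10.68 to 10.75 in tumor, 10.59 to 10.69 in adjacent liver and 11.09 to 11.13 in wild-type liver, and fell by 0.40 in tumor (adjusted p = 9.39e-05) and by 0.46 in adjacent liver (adjusted p = 3.42e-05).

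Sel1l, Syvn1 and Edem1 were lowest in adjacent liver. Sel1l, the adaptor that steadies the ligase HRD1, was at 9.99, 10.15 and 10.25 in tumor, 9.85, 9.72 and 9.86 in adjacent liver and 10.53, 10.47 and 10.59 in wild-type liver. Sel1l fell by 0.72 in adjacent liver (SE 0.08, adjusted p = 1.46e-05) and fell by 0.40 in tumor (SE 0.08, adjusted p = 0.00104), and its 4 other probe sets fell in both. In adjacent liver they included -1.29 and -1.23 (adjusted p = 3.94e-06 and 4.83e-07), past the 2-fold limit, beside -0.77 and -0.57. Syvn1, which encodes HRD1, ranged from 10.03 to 10.33 in tumor, 9.65 to 9.89 in adjacent liver and 10.18 to 10.52 in wild-type liver. It fell by 0.52 in adjacent liver (adjusted p = 0.00197), and tumor against wild-type liver gave -0.15 (adjusted p = 0.256). Another Syvn1 probe set was lower in tumor too, at -0.30 (adjusted p = 0.0369). Edem1, a lectin that hands misfolded glycoproteins to degradation, ranged from 10.53 to 10.72 in tumor, 10.00 to 10.14 in adjacent liver and 10.49 to 10.70 in wild-type liver, and fell by 0.47 in adjacent liver (adjusted p = 0.000456). For tumor against wild-type liver its brighter probe set gave 0.07 (adjusted p = 0.43) and another gave -0.65 (adjusted p = 6.79e-06).

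Of the 3 sensors and Xbp1, none changed 2-fold, as was so for most genes tested. In tumor against wild-type liver 2 rose and 1 fell (all genes 33.2% and 30.2%). In adjacent against wild-type liver 2 rose and 0 fell (all genes 34.0% and 28.9%). In tumor against adjacent liver 2 rose and 2 fell (all genes 20.1% and 25.1%). Atf6 was at 9.13, 9.13 and 9.26 in tumor, 9.99, 9.86 and 10.07 in adjacent liver and 9.44, 9.36 and 9.54 in wild-type liver. It was highest in adjacent liver, where the mean of the chaperones was lowest. Atf6 rose by 0.52 in adjacent liver (SE 0.08, adjusted p = 0.000145), fell by 0.27 in tumor (SE 0.08, adjusted p = 0.00953) against wild-type liver, and tumor fell by 0.80 against adjacent liver (SE 0.08, adjusted p = 1.3e-05). Other probe sets gave 0.58 and 0.59 in adjacent liver, but 0.23 and 0.04 in tumor against wild-type liver (adjusted p = 0.0511 and 0.613), so the fall in tumor rests on a single probe set.

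Xbp1 was at 13.32, 13.16 and 12.83 in tumor, 12.64, 12.64 and 12.66 in adjacent liver and 12.31, 12.41 and 12.47 in wild-type liver. It rose by 0.71 in tumor over wild-type liver (SE 0.11, adjusted p = 0.000182) and by 0.46 over adjacent liver (SE 0.11, adjusted p = 0.00511), while adjacent against wild-type liver gave 0.25 (SE 0.11, adjusted p = 0.0614). A second bright probe set gave 0.88, 0.46 and 0.42 for tumor against wild-type, tumor against adjacent and adjacent against wild-type liver, the last at adjusted p = 0.000234. A dim one gave -0.33 in adjacent against wild-type liver (adjusted p = 0.0211), opposite to the bright ones. Ern1 ranged from 10.59 to 10.81 in tumor, 10.28 to 10.45 in adjacent liver and 10.10 to 10.27 in wild-type liver, a rise of 0.55 in tumor over wild-type liver (SE 0.08, adjusted p = 0.000119). Of its other probe sets, one gave 0.68 there (adjusted p = 1.36e-05) and the others 0.04 and -0.20 (adjusted p = 0.731 and 0.161). Eif2ak3 ranged from 8.14 to 8.21 in tumor, 8.34 to 8.47 in adjacent liver and 8.11 to 8.13 in wild-type liver. It rose by 0.27 in adjacent liver (SE 0.06, adjusted p = 0.00231) and was at 0.06 in tumor against wild-type liver (adjusted p = 0.346), and another probe set gave 0.01 in adjacent liver (adjusted p = 0.913).

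**Figure D5:**
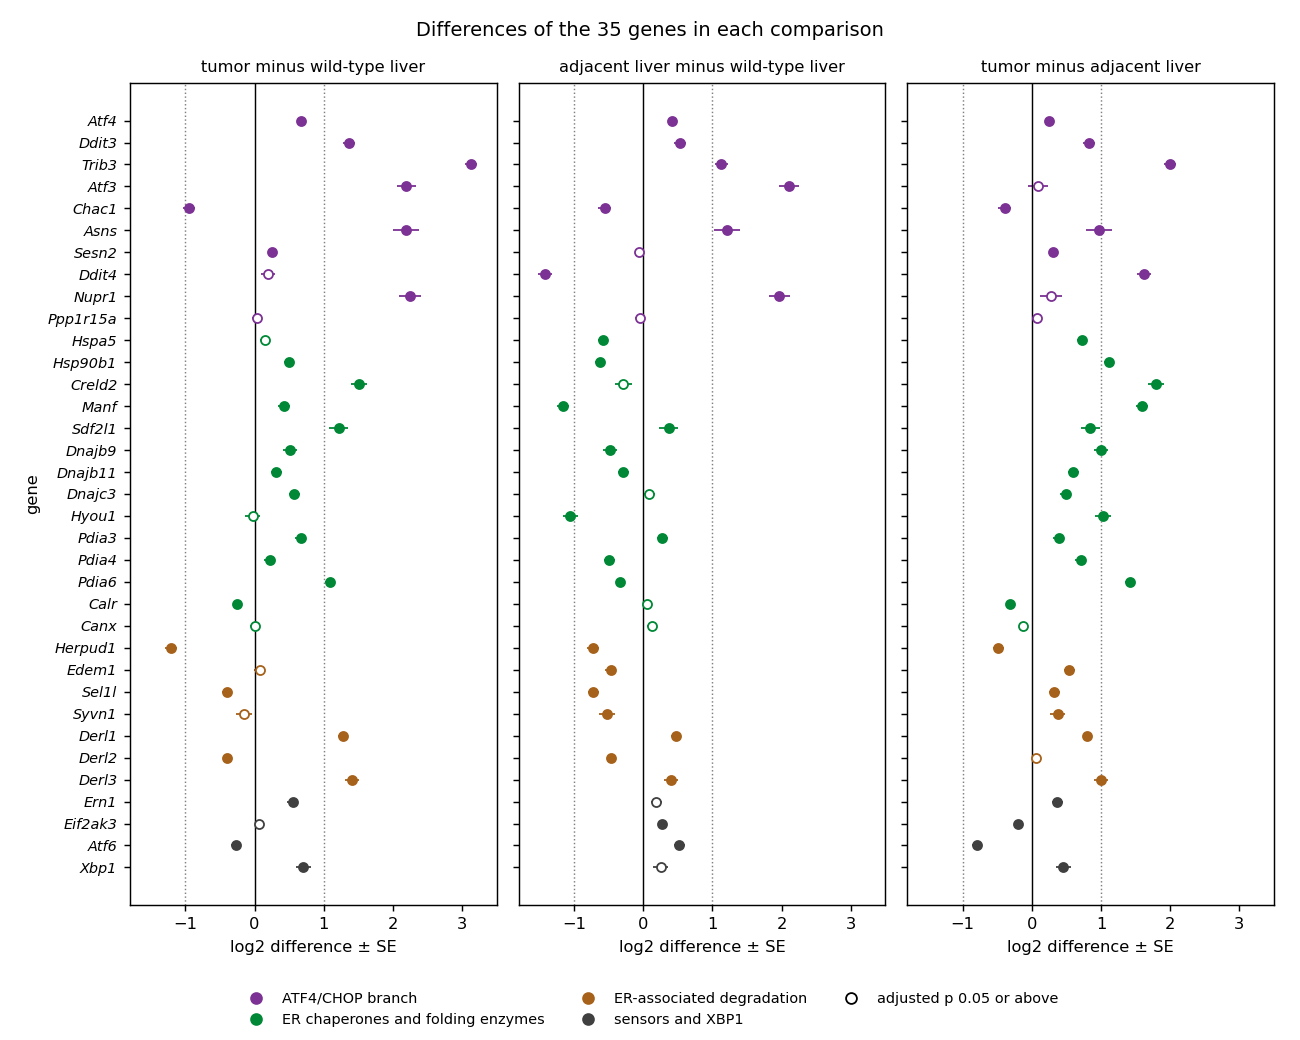
Log2 difference with its SE (horizontal axis, limma over 9 arrays) of the 35 genes in tumor minus wild-type, adjacent minus wild-type and tumor minus adjacent liver, coloured by role, with open points at an adjusted p of 0.05 or above and dotted lines at -1 and 1. Chaperones lie mostly right of 0 in the outer panels and left of it in the middle panel, where Manf is at -1.16 and Hyou1 at -1.05.

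The wider ATF4 output and the rest of the ER machinery were examined through lists of further pathway genes. Their counts by the adjusted p stand beside 33.2% higher and 30.2% lower among all genes in tumor against wild-type liver, 34.0% and 28.9% in adjacent against wild-type liver and 20.1% and 25.1% in tumor against adjacent liver. Most genes of the array had no 2-fold call, so a list without one is not set apart by it. Of 17 enzymes and amino acid transporters that ATF4 is known to induce, 15 were tested, and 10 rose and 4 fell in tumor, 9 rose and 4 fell in adjacent liver against wild-type liver. The serine synthesis enzyme Psat1 was at 9.99 ± 0.08 in tumor, 9.44 ± 0.31 in adjacent liver and 4.11 ± 0.25 in wild-type liver (SD, n = 3). The cystine transporter subunit Slc7a11 was at 9.76 ± 0.21 in tumor, 6.87 ± 0.35 in adjacent liver and 4.46 ± 0.31 in wild-type liver. The proline synthesis enzyme Aldh18a1 was at 7.47 ± 0.07 in tumor, 8.43 ± 0.34 in adjacent liver and 4.40 ± 0.14 in wild-type liver. All wild-type pieces of these 3 genes lay below the 40th percentile of their array, so the genes entered the test only through tumor and adjacent liver, and the counts hold them. The serine phosphatase Psph rose by 1.64 in tumor (SE 0.08) and by 2.10 in adjacent liver (SE 0.08). Not all followed, since Cth, the enzyme that makes cysteine from cystathionine, fell by 2.06 in tumor (SE 0.09, adjusted p = 1.17e-08) and by 1.60 in adjacent liver (SE 0.09, adjusted p = 9.89e-08). Got1 fell by 1.53 and 1.51, and the mitochondrial serine enzyme Shmt2 fell by 1.05 in adjacent liver (SE 0.09, adjusted p = 2.74e-06).

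Cytosolic tRNA synthetases, many of them ATF4 targets, leaned the other way between tumor and adjacent liver. Of 19 tested, 8 rose and 8 fell in tumor, and 13 rose and 2 fell in adjacent liver, against wild-type liver. In tumor against adjacent liver 3 rose and 12 fell. The alanine enzyme Aars fell by 1.61 in tumor (SE 0.06, adjusted p = 5.65e-09) against wild-type liver and by 1.18 against adjacent liver (SE 0.06, adjusted p = 2.24e-07), whereas the valine enzyme Vars rose by 1.01 in tumor (SE 0.06) and by 1.32 in adjacent liver (SE 0.06) and the leucine enzyme Lars by 1.23 in adjacent liver (SE 0.07). Of 14 tested regulators and secreted factors downstream of ATF4, 7 rose and 4 fell in tumor and 6 rose and 5 fell in adjacent liver against wild-type liver. Fgf21, a hormone released by stressed liver, rose by 2.36 in tumor (SE 0.17, adjusted p = 5.22e-07) and by 1.99 in adjacent liver (SE 0.17, adjusted p = 2.37e-06). The translation repressor Eif4ebp1 rose by 1.13 (SE 0.07) and the CHOP-linked death gene Bcl2l11 by 1.80 (SE 0.14) in tumor, while Cebpb, a partner of ATF4, fell by 1.07 in adjacent liver (SE 0.07, adjusted p = 2.48e-07). Of 11 tested subunits and kinases of the eIF2 system, none changed 2-fold in any comparison, with 5 higher and 4 lower by the adjusted p alone in tumor against wild-type liver.

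Of 20 tested genes of the translocon, signal peptidase and signal recognition particle, 14 rose and 1 fell in tumor against wild-type liver and 13 rose and 0 fell against adjacent liver, while adjacent against wild-type liver gave 6 higher and 6 lower. Sec11c, a signal peptidase subunit, rose by 1.14 in adjacent liver (SE 0.13, adjusted p = 3.4e-05). Of 20 tested genes of N-glycosylation and lectin quality control, 12 rose and 4 fell in tumor and 8 rose and 7 fell in adjacent liver against wild-type liver, and 14 rose and 1 fell in tumor against adjacent liver. Magt1, an oxidoreductase subunit of oligosaccharyltransferase, fell by 1.04 in adjacent liver (SE 0.08, adjusted p = 1.16e-06).

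Among 27 tested further folding enzymes of the ER, 17 rose and 4 fell in tumor and 10 rose and 6 fell in adjacent liver against wild-type liver, and 14 rose and 6 fell in tumor against adjacent liver. The prolyl isomerase Fkbp11 was at 10.33 ± 0.10 in tumor, 9.81 in each adjacent piece and 6.86 ± 0.01 in wild-type liver (SD, n = 3), a rise of 3.47 in tumor (SE 0.06, adjusted p = 5.32e-11) and of 2.95 in adjacent liver (SE 0.06, adjusted p = 1.81e-10). With 9.81 in each adjacent piece, the spread behind these SEs of Fkbp11 may be understated, as for Chac1. Dnajc10 (ERdj5), an ER reductase, rose by 2.40 and 2.03 (SE 0.08 each). Both rose in adjacent liver, where most of the 14 chaperones fell. Kdelr3, a receptor that returns escaped ER proteins, rose by 3.21 in tumor (SE 0.14, adjusted p = 1.45e-08) and exceeded adjacent liver by 2.43 (SE 0.14, adjusted p = 4.29e-07). Of 22 tested further degradation and ER stress genes, none changed 2-fold, with 6 higher and 5 lower in tumor and 5 higher and 9 lower in adjacent liver. Of 8 tested relatives of ATF6, their proteases and associated factors, 5 rose and 1 fell in tumor, and Bhlha15 (MIST1), a factor of secretory cells downstream of XBP1, rose by 1.90 (SE 0.11, adjusted p = 1.05e-07).

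Stress responses of other compartments were set beside these. Of 15 tested genes of the cytosolic heat shock response, 3 rose and 7 fell in tumor and 3 rose and 6 fell in adjacent liver against wild-type liver. The inducible Hsp70 gene Hspa1b was also lowest in adjacent liver, at 9.12, 9.15 and 8.72 in tumor, 7.07, 6.50 and 6.45 in adjacent liver and 9.10, 9.05 and 9.60 in wild-type liver, a difference of -2.58 in adjacent against wild-type liver (SE 0.19, adjusted p = 1.11e-06). The co-chaperone Fkbp4 fell by 1.43 in tumor (SE 0.06, adjusted p = 1.19e-08). Of 11 tested genes of the mitochondrial unfolded protein response, 3 rose and 3 fell in tumor and 5 rose and 2 fell in adjacent liver, and the protease subunit Clpx fell by 1.89 in tumor (SE 0.13, adjusted p = 3.59e-07) and by 1.49 in adjacent liver (SE 0.13, adjusted p = 2.69e-06).

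Markers of other cell types, those rich in ER first, are given beside these results. Of 13 plasma and B cell markers, 9 were tested, and 8 rose and 0 fell in tumor against wild-type liver, with Jchain higher by 2.23 (SE 0.14, adjusted p = 1.74e-07). There 3 were called higher. In adjacent against wild-type liver 3 rose and 1 fell, with 0 called higher and 1 lower. In tumor against adjacent liver 7 rose and 0 fell (all genes 20.1% and 25.1%). There 2 were called higher (all genes 2.10%). Their summed linear level ran from 6997 to 8492 in tumor, 4440 to 4733 in adjacent liver and 4817 to 5888 in wild-type liver, and 2, 3 and 3 of 11 markers on the array lay below the 40th percentile in every piece of those groups. Of 10 pancreatic acinar markers, 4 were tested, and Cela1, which rose by 0.94 in tumor, was the only one to pass (SE 0.11, adjusted p = 3.64e-05). The acinar sum ran from 2592 to 3042 in tumor, 1602 to 1726 in adjacent liver and 1533 to 1929 in wild-type liver, with 3 of 7 markers in the dim range in each group. Of the stellate cell and fibroblast markers tested, 7 of 10 rose and 1 fell in tumor, and 6 rose and 3 fell in adjacent liver, against wild-type liver. In each comparison 5 were called higher and 1 lower. Of 12 macrophage markers 7 rose and 3 fell in each. Calls were 4 higher and 2 lower in tumor, and 3 higher and 3 lower in adjacent liver. Of 8 neutrophil markers 6 rose and 0 fell in each, with 3 called higher in each. Of 8 cholangiocyte markers tested, 3 rose and 1 fell in each, with 1 called higher in tumor and 2 in adjacent liver. Endothelial markers, 10 tested, had 2 called higher in tumor, and 3 higher and 1 lower in adjacent liver. Of 8 T and NK cell markers, 0 were called in tumor and 2 higher in adjacent liver. Of 3 adipocyte markers, 2 were called higher in tumor, and 1 higher and 1 lower in adjacent liver. All neutrophil, macrophage, endothelial and cholangiocyte markers on the array were tested. In each of these lists, 1 marker lay below the 40th percentile in every wild-type piece. That marker entered the test only through the other groups, and the counts hold it. The plasma and B cell counts also hold a tested marker this dim in every wild-type piece. Among all genes, 33.2% rose and 30.2% fell in tumor and 34.0% and 28.9% in adjacent liver, against wild-type liver. Calls there took in 8.41% higher and 4.59% lower in tumor, and 8.29% and 3.22% in adjacent liver. The part of these cells in the results was not tested. Hepatocyte markers were bright in every piece, with 0 of 8 called in any comparison and sums of 128600 to 130900 in tumor, 124500 to 126600 in adjacent liver and 129500 to 131700 in wild-type liver. Their mean per piece, 13.82 to 13.91 (log2), lay close to the highest value of the arrays, 14.43 to 14.51. Differences in markers this bright may not show, so these values do not measure hepatocyte content as equal. The 3′ minus 5′ difference of the Actb control probe sets, a sign of RNA integrity, was 0.59 ± 0.09 in tumor, 0.85 ± 0.05 in adjacent liver and 0.86 ± 0.02 in wild-type liver (log2, SD, n = 3). The Gapdh control probe sets ordered the groups differently, at 0.21 ± 0.01 in tumor, 0.16 ± 0.02 in adjacent liver and 0.27 ± 0.02 in wild-type liver. The part of RNA integrity was not tested.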

How the data were processed

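RNA from 9 liver pieces was measured on 1-colour Affymetrix 3′ arrays with 45101 probe sets, 1 array per piece and 3 per group. The deposited values are log2 expression. The submitters' processing notes name RMA and, for the software, Affymetrix Expression Console (version 1.3.1.187), so the authors had normalized and summarised the probes before deposit. RMA equalises the arrays, so a shift of most genes would not show. Array medians ran from 5.76 to 5.81, and arrays of a group correlated at 0.996 to 0.998 across probe sets, with no identical pair. All 3 pieces of a group held the same value in 0.486% to 0.831% of probe sets. The number of arrays limits the precision. Whether dim probe sets differ from background is unknown, as no detection calls were used.

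Of the probe sets, 34958 had 1 symbol in the platform annotation, 932 several and 9211 none. Entrez identifiers of 34754 were found in a RefSeq table (GRCm38.p6), with 0 symbols changed. Each gene was taken at the probe set with the highest mean over 9 arrays, which gave 18194 genes. The filter kept 13888 genes that exceeded, on 3 or more arrays, that array's 40th percentile. limma (version 3.58.1, under R 4.3.3) tested these (lmFit and eBayes, 1 mean per group, 6 residual degrees of freedom, Benjamini-Hochberg). Called means an adjusted p under 0.05 and a log2 difference of at least 1. Other probe sets of the 35 genes were tested in a second limma fit over all single-symbol probe sets that passed the filter. The fit was tested on simulated data. Alternatives covered the threshold, filter, probe set rule, normalization, variance model, array weights, the 2 groups alone, a replicate block and each array left out. Replicate numbers are shared by the groups, but no label says that they pair pieces, and deviations of same-numbered arrays correlated at -0.11 to 0.14 across genes, so they were not taken as pairs.

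The 35 genes, the pathway lists and the rule for naming (all 35, and up to 4 called genes of each other list, or 3 of a marker list, with the smallest adjusted p, plus Sart1) were chosen with earlier results of these data known. Promoter windows of 300 bases were taken from RefSeq and searched on both strands with Python 3.11.15.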

Additional observations from a re-analysis of the deposited data

How the results depend on the processing

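The called members, 26 calls over the 3 comparisons, kept their direction under each of 22 other settings. For many settings this was fixed in advance. The thresholds, filters, variance models, the 2 groups alone and the replicate block leave a difference between group means unchanged. So does leaving out an array of the group not compared. Direction could change only with the probe set rule, normalization, array weights or a left-out array of a compared group. Of 2304 member values under all 22 settings, 2182 kept direction and call, 16 lost the call, 84 gained it and 22 changed sign, none of a called member. Calls lost were of Pdia6, Derl1, Hyou1 and Hsp90b1 with the mean of probe sets, and of Hyou1 and Derl3 near the 2-fold limit elsewhere. Without the 2-fold limit, 21 members were higher and 6 lower in tumor against wild-type liver (8799 genes in all), 12 and 15 in adjacent against wild-type liver (8745), and 25 and 5 in tumor against adjacent liver (6274). With a minimum of 1.5-fold, 2 members were lower in tumor and 6 in adjacent liver against wild-type liver (3727 and 3389 genes called), and 16 were higher and 1 lower in tumor against adjacent liver (2008 genes). Fewer or more genes follow from the limit itself.

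The median of the ATF4/CHOP branch, 1.02 in tumor and 0.48 in adjacent against wild-type liver and 0.30 in tumor against adjacent liver, moved to 0.88, 0.25 and 0.47 with the mean of probe sets. It was 1.14 and 0.59 in tumor against wild-type and against adjacent liver with the most variable probe set, 0.95 in tumor and 0.42 in adjacent against wild-type liver with cyclic loess, and 0.39 in tumor against adjacent liver with array weights. The chaperone median in tumor against adjacent liver was 0.85 with the most variable probe set, beside 0.78. The cause was not tested. With each array left out in turn, lower calls in tumor against wild-type liver numbered 1 to 2 (2 without wild-type replicate 3, where Chac1 passed the limit at -1.06), and the ATF4/CHOP median in tumor against adjacent liver ran from 0.25 to 0.39.

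Sign changes with the mean of probe sets in tumor against wild-type liver were Dnajc3 at -0.11, Hyou1 at 0.092, Edem1 at -0.29 and Atf6 at 0.00050, with Ern1 at -0.058 in adjacent against wild-type liver and Dnajc3 at -0.14 in tumor against adjacent liver. With the most variable probe set Dnajc3 was at -0.52, -0.0047 and -0.51 in tumor against wild-type, adjacent against wild-type and tumor against adjacent liver, and Edem1 at -0.65 in tumor against wild-type liver. With cyclic loess, Ppp1r15a was at -0.019 and Canx at -0.072 in tumor, and Calr at -0.020 in adjacent liver, against wild-type liver. With array weights Hyou1 was at 0.061 in tumor against wild-type liver. With single arrays left out, in tumor against wild-type liver, Canx ran from -0.037 to 0.071, Ppp1r15a from -0.0093 to 0.064 and Hyou1 from -0.082 to 0.084. Atf3 ran from -0.071 (without adjacent replicate 2) to 0.20 in tumor against adjacent liver. A replicate block left 10 members higher and 1 lower in tumor against wild-type liver, 4 and 3 in adjacent against wild-type liver and 8 and 0 in tumor against adjacent liver, the same counts as without pairing.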
